A study of Homo sapiens with 5 samples.

Results

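The genes followed here make, regulate and break down the polyamines, and are 10 of the 57221 rows of a count table: ODC1, AMD1, SRM and SMS (synthesis), AZIN1, OAZ1 and OAZ2 (regulators), and SAT1, PAOX and SMOX (turnover). They were taken from the table by gene symbol. RNA had been sequenced from NK92MI, an established human natural killer (NK) cell line that carries an introduced IL2 gene and so grows without added interleukin 2. One group (2 libraries) received the solvent DMSO. The other (3 libraries) received 10 µM UNC1999, an inhibitor of the histone methyltransferases EZH2 and EZH1, and both were cultured for 48 h. All libraries come from this single line, and the labels do not say whether they were separate cultures, so the p-values rest on the spread among these 5 libraries, which may be technical only.

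The polyamines putrescine, spermidine and spermine are small, positively charged molecules that bind RNA and DNA and that dividing cells need. Ornithine decarboxylase (ODC1) turns ornithine into putrescine, and S-adenosylmethionine decarboxylase (AMD1) supplies the aminopropyl groups that spermidine synthase (SRM) and spermine synthase (SMS) add. Antizymes (OAZ1, OAZ2) bind the ODC protein and deliver it to the proteasome, and the antizyme inhibitor AZIN1, a relative of ODC without its activity, binds antizymes in its place. SAT1 acetylates spermidine and spermine, PAOX oxidises the acetylated forms, and SMOX oxidises spermine directly. In lymphocytes polyamine synthesis rises when cells are activated to divide, and much of its control acts on translation and protein stability, which read counts do not measure.

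Library totals lay between 8442908 and 8748106 counts, and the 10 genes took 0.186% to 0.209% of them. All 8 NK markers had counts, from NKG7 at 1749 and 1765 CPM in DMSO and UNC1999 down to KLRD1 at 21.1 and 20.4 and FCER1G at 2.55 and 1.68, and CD7 was called higher (49.9 and 89.1 CPM), whereas 3 of 4 T-cell markers (CD3D, CD3G, CD4) were at 0 in every library and the fourth, TRAC, stood at 112 and 86.8 CPM. CPM are read counts relative to the library total, corrected with TMM factors, and in bulk RNA a lower value from fewer expressing cells cannot be told apart from less RNA per cell. With edgeR's quasi-likelihood test and Benjamini-Hochberg adjustment over 13075 tested genes, a gene is termed called when its adjusted p is under 0.05. The median log2 fold change of all tested genes was -0.01, and 44.7% of calls were higher. Without scaling factors the median moved up by 0.10 and 62.9% of calls were higher, and with upper-quartile factors 56.5% were. UNC1999 replicate 2 stood apart from its group, with a chi-square per degree of freedom of 7.47 and 8.77 against replicates 1 and 3, which gave 1.81 against each other. Fold changes across the transcriptome also followed the GC content of the genes. The main values are therefore given with and without offsets that remove the trend of each library with GC content and transcript length (11050 genes). These offsets also remove any part of a difference between the groups that follows GC content or length.

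Of the 10 genes, 8 passed the filter on low counts. ODC1 and OAZ2 fell, AMD1 rose, and SRM, SMS, AZIN1, OAZ1 and SAT1 were not called. Over all tested genes 15.7% were called higher and 19.5% lower, so 1 higher and 2 lower of 8 lie near the share found everywhere. With offsets the called genes were others: ODC1, AZIN1 and OAZ1 were lower and none of the 8 was higher, where 14.9% of all genes were higher and 18.9% lower. ODC1 was the sole gene of the 8 called in both fits. The median log2 fold change of the 8 was -0.24, against -0.01 over all tested genes, and -0.15 with offsets, against -0.0039. All UNC1999 libraries lay below both DMSO libraries for 4 of the 8 (ODC1, AZIN1, OAZ1, OAZ2) and above them for AMD1, where 30.4% and 24.2% of all tested genes were so placed. Without UNC1999 replicate 2 the calls were 2 higher and 5 lower, and without either DMSO library they were 0 higher and 1 lower. Calls over all genes moved too, from 2057 higher and 2546 lower to 2862 and 3030 without UNC1999 replicate 2, and to 1158 and 1367 or 1309 and 1667 without DMSO replicate 1 or 2.

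**Figure D1:**
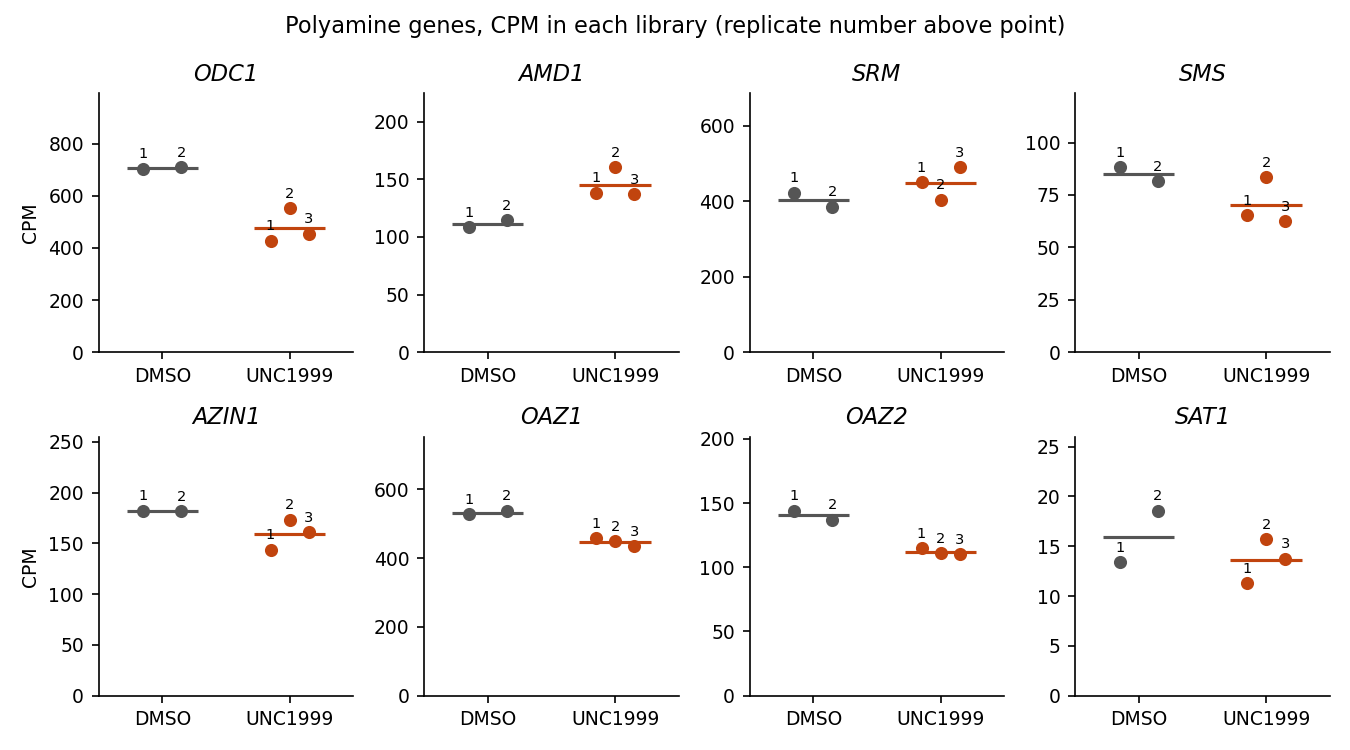
CPM (vertical axes, from 0) of the 8 tested polyamine genes in DMSO (2 libraries, grey) and UNC1999 (3 libraries, orange); points are libraries with their replicate number above, and lines are group means. ODC1 is lower in each UNC1999 library and AMD1 higher, while SRM, SMS and SAT1 overlap; UNC1999 replicate 2 is the highest of its group for ODC1, AMD1, SMS, AZIN1 and SAT1.

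ODC1, the gene of the enzyme that commits ornithine to polyamine synthesis, had 704 and 709 CPM in DMSO and 428, 552 and 454 CPM in UNC1999. Both DMSO libraries were above all UNC1999 libraries, and UNC1999 replicate 2 was the nearest to them. The log2 fold change was -0.56 ± 0.11 (SE), or 0.677 of the DMSO level with a 95% interval of 0.579 to 0.791 (edgeR adjusted p = 0.000134). With offsets it was -0.26 ± 0.07 (edgeR adjusted p = 0.00585), and the 5 libraries then stood at 612 and 632 CPM against 470, 579 and 509. ODC1 was called lower under each of 19 other settings, between -0.67 and -0.25. In the fit with offsets, leaving out UNC1999 replicate 1 ended the call (-0.19, edgeR adjusted p = 0.104). Offsets with GC content and length from the longest transcript, added after seeing the data, gave -0.21 (edgeR adjusted p = 0.0253). In GENCODE 29 (build GRCh38, while the authors' notes name hg19) ODC1 lies on chromosome 2, from 10439968 to 10448504 on the minus strand.

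MYC, the transcription factor long known to act on ODC1 through E-box sequences, had 183 and 176 CPM in DMSO and 79.4, 89.9 and 93.6 CPM in UNC1999, with no overlap. It fell by 1.03 ± 0.11 (SE) on the log2 scale by edgeR's test (adjusted p = 7.87e-09), and by 0.99 with offsets (-0.77 with offsets from the longest transcript). That is a larger drop than ODC1 showed, and within each library the ratio of MYC to ODC1 counts went from 0.260 and 0.248 in DMSO to 0.185, 0.163 and 0.206 in UNC1999. Whether the ODC1 change depended on MYC was not tested.

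AMD1, which encodes the decarboxylase that yields the aminopropyl donor, had 108 and 114 CPM in DMSO and 138, 160 and 137 CPM in UNC1999. All 3 UNC1999 libraries were above both DMSO libraries. The log2 fold change was 0.38 ± 0.11 (SE), or 1.30-fold with a 95% interval of 1.11 to 1.53 (edgeR adjusted p = 0.00702). Without DMSO replicate 1 or 2 the value was 0.34 or 0.42 with an SE of 0.16, and the call was lost (edgeR adjusted p = 0.138 and 0.0601). With offsets the value was -0.06 (95% interval -0.21 to 0.10, edgeR adjusted p = 0.598), which gives no direction. The libraries then overlapped at 132 and 135 CPM in DMSO and 123, 139 and 123 CPM in UNC1999. Offsets from the longest transcript, added after seeing the data, gave 0.004. Offsets fitted within groups, which keep differences between groups, gave 0.38. AMD1 transcripts have the lowest GC content of the 8 tested genes (37.7%), and the 430 tested genes within 1 percentage point of it had a median log2 fold change of 0.47, above that of AMD1. The gene lies on chromosome 6 from 110874770 to 110895713 (GRCh38, plus strand).

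SRM, which makes spermidine from putrescine, had 423 and 386 CPM in DMSO and 450, 404 and 490 CPM in UNC1999. The groups overlapped, as UNC1999 replicate 2 lay between the DMSO libraries. On the log2 scale the difference was 0.15 (95% interval -0.08 to 0.37; edgeR adjusted p = 0.312) and 0.02 with offsets (-0.13 to 0.16). Without UNC1999 replicate 2 SRM was called higher (0.23, edgeR adjusted p = 0.0104).

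SMS, which makes spermine from spermidine and is X-linked, had 88.2 and 81.4 CPM in DMSO and 65.4, 83.5 and 62.5 CPM in UNC1999. UNC1999 replicates 1 and 3 were below both DMSO libraries and replicate 2 was between them. The log2 fold change was -0.27 (95% interval -0.51 to -0.02, edgeR adjusted p = 0.08) and 0.02 with offsets (-0.15 to 0.20). Without UNC1999 replicate 2 SMS was called lower (-0.40, edgeR adjusted p = 0.000527).

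Promoters of 7 of the 10 genes were taken from a table of RefSeq sequences (GRCh38.p14), in 10 windows from 250 bases before to 50 after a start. They were searched on both strands for CACGTG, the E-box that MYC and related factors bind, since ODC1 and MYC both fell. ODC1 (2 matches) and SRM (1 match) held it and the other 5 did not. Of all 35116 windows 7.26% held at least 1 match and 0.664% held 2 or more. Counted by gene, 8.77% of the 27305 genes with a window held at least 1. The windows with matches had a GC content of 80.7% (ODC1) and 82% (SRM). No share was taken for windows of like GC content, so these shares do not show whether matches are more frequent here. The ODC1 matches stand 34 bases apart beside its second start, at chr2:10448036-10448041 and chr2:10448002-10448007, the first beginning 29 bases before it and the second at base 6 after it. In GENCODE 29 both lie in an intron of ODC1. The SRM match, at chr1:11060212-11060217, begins 199 bases before the start. The stretches around them are shown 5′ to 3′ on each gene's strand with CACGTG in capitals, and AMD1, which has no match, is shown for comparison with 1 GC box (GGGCGG, found in 45% of windows) in capitals. They span chr2:10447992-10448061 (minus), chr1:11060182-11060247 (minus) and chr6:110874685-110874784 (plus).
ODC1: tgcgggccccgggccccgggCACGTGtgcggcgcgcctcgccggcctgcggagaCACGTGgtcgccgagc
SRM: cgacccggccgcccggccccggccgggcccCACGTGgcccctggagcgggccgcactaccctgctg
AMD1: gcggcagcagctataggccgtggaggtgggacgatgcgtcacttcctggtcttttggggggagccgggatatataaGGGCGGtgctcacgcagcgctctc

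ODC1, with 2 matches, fell, and SRM, with 1, had a value above 0 and was not called. These are 2 genes without binding data, and whether MYC acted on either was not tested. A match is a run of letters and not a measured binding site. Windows on chromosome 8, where AZIN1 lies, were left out of the search, and none was found for PAOX and SMOX.

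OAZ1, the gene of the more abundant antizyme, had 528 and 538 CPM in DMSO and 459, 450 and 434 CPM in UNC1999. The groups did not overlap. The log2 fold change was -0.25 ± 0.10 (SE) and just missed the threshold (edgeR adjusted p = 0.0573), while with offsets it was -0.22 ± 0.07 and passed (edgeR adjusted p = 0.0167). DESeq2 called it too (-0.23, adjusted p = 0.0446), and without UNC1999 replicate 2 edgeR did (-0.24, adjusted p = 0.00385). In the fit with offsets, omitting DMSO replicate 2 ended the call (edgeR adjusted p = 0.0994), and so did omitting replicate 1 or replicate 3 of UNC1999 (0.0903 and 0.111). A replicate block with offsets ended it as well (-0.17, edgeR adjusted p = 0.0657). With a block, UNC1999 replicate 3 has no DMSO counterpart and does not enter the group difference.

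The first exon of OAZ1 (gene at 2269509 to 2273490 on chromosome 19, plus strand, GRCh38) shares 236 bases with an exon of JSRP1 on the opposite strand. JSRP1, known as a muscle gene, had 3385 and 3431 counts in DMSO and 3885, 3374 and 3961 in UNC1999, beside 4254 and 4521, and 4061, 4124 and 3818, for OAZ1. No strand setting is given in the sources used here, so reads of the shared bases cannot be told apart. With both rows summed, an alternative chosen after seeing the data, the values were 948 and 946 CPM in DMSO and 897, 817 and 885 CPM in UNC1999. That sum was not called (log2 fold change -0.13 ± 0.11 SE, edgeR adjusted p = 0.364), nor was it with offsets (-0.10, edgeR adjusted p = 0.267). JSRP1 alone was at 0.02 (edgeR adjusted p = 0.922), and at -0.16 with its own offsets (edgeR adjusted p = 0.0751). With offsets the sum takes the GC content and length of OAZ1. A row that changes less shrinks the change of the sum, wherever its reads came from. The sum therefore cannot tell whether OAZ1 itself fell.

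OAZ2, a second antizyme gene, had 144 and 137 CPM in DMSO and 115, 111 and 110 CPM in UNC1999, with no overlap. It fell by 0.33 on the log2 scale (SE 0.11), to 0.797 of the DMSO level (95% interval 0.686 to 0.926; edgeR adjusted p = 0.0152). With offsets the value was -0.08 and not called (edgeR adjusted p = 0.426). The call was lost under 10 of 19 other settings. Leaving out a DMSO library, replicate 1 or 2, gave an edgeR adjusted p of 0.175 or 0.0764, leaving out a treated one, UNC1999 replicate 1 or 3, gave 0.0523 or 0.0632, and a replicate block gave 0.0522. OAZ2 also shares 554 exon bases with an antisense gene, AC100830.3, which had 1 or 2 counts in each library.

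AZIN1, the antizyme inhibitor, had 182 CPM in both DMSO libraries and 144, 173 and 161 CPM in UNC1999. Every UNC1999 library was lower, by a margin that was small beside the spread among them. The log2 fold change was -0.19 (95% interval -0.41 to 0.03; edgeR adjusted p = 0.178). With offsets AZIN1 fell by 0.46 on the log2 scale (SE 0.07, edgeR adjusted p = 6.03e-06), the smallest p of the 8 genes in that fit, and it was called there with each library left out in turn (-0.49 to -0.40). Its GC content is 41.9%, and the 1036 tested genes within 1 percentage point had a median log2 fold change of 0.30. When GC content and length were taken from the longest transcript instead (an alternative added after seeing the data), the value was -0.33 (edgeR adjusted p = 0.000349). In GENCODE 29 an antisense RNA, AZIN1-AS1, overlaps 344 exon bases of the gene and had 9 to 23 counts.

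**Figure D2:**
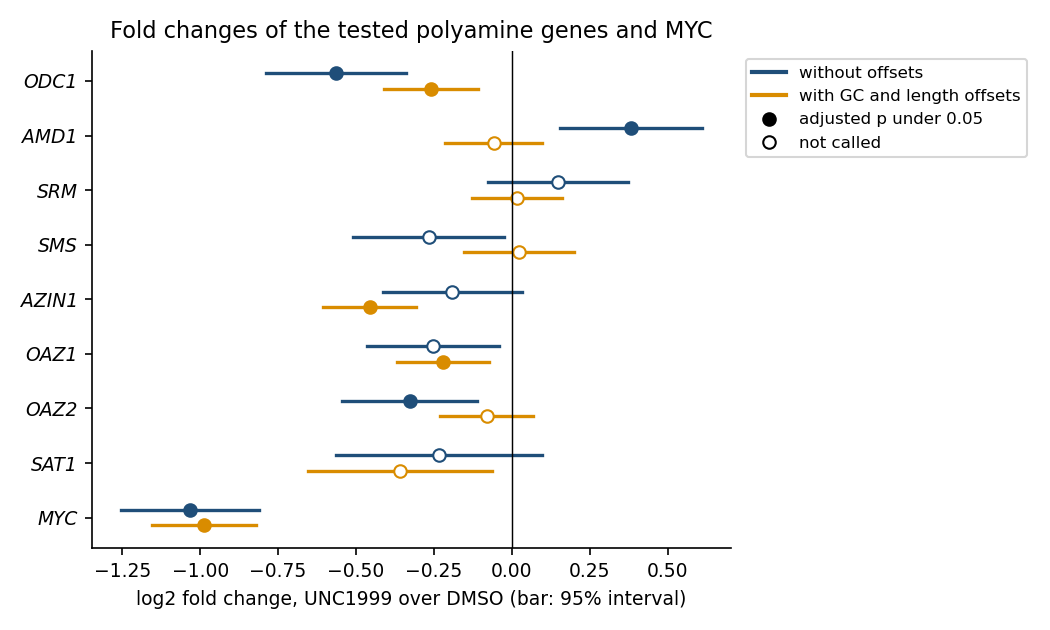
Log2 fold change of UNC1999 over DMSO (horizontal axis) with its 95% interval for the 8 tested genes and MYC, without offsets (blue) and with GC and length offsets (orange); filled points have an adjusted p under 0.05. ODC1 and MYC are filled in both fits, AMD1 and OAZ2 only without offsets, and AZIN1 and OAZ1 only with them.

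SAT1, the acetyltransferase that starts polyamine breakdown, was the least abundant of the 8 tested genes, at 13.4 and 18.6 CPM in DMSO and 11.3, 15.7 and 13.8 CPM in UNC1999. The groups overlapped. Its difference on the log2 scale was -0.24 (95% interval -0.57 to 0.10; edgeR adjusted p = 0.273) and -0.36 with offsets (edgeR adjusted p = 0.053), and without DMSO replicate 2 it was 0.02. At 100 to 156 counts per library a change of the size of ODC1's lies just inside this interval. It passed the test with a replicate block and offsets together (-0.40, edgeR adjusted p = 0.0303), and with offsets alone when DMSO replicate 1 (-0.55) or replicate 2 or 3 of UNC1999 (-0.42 and -0.40) was omitted.

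The oxidases were at or near the limit of detection. PAOX, the acetylpolyamine oxidase gene, had 1 and 0 counts in DMSO and 0 in each UNC1999 library. SMOX, the spermine oxidase gene, had 0 in both DMSO libraries and 3, 1 and 1 in UNC1999. All are at or under the floor of 3 counts (0.327 to 0.373 CPM), the upper limit that a count of 0 sets by counting error alone, so no fold change is given for either gene. PAOX shares 158 exon bases in GENCODE 29 with another gene on its strand.

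The order of the levels depends on the transcript length used. Per kilobase of the median transcript length in GENCODE 29, DMSO levels ran from SRM (699 CPM per kilobase) over OAZ1 (550), ODC1 (542), AZIN1 (250), OAZ2 (199), SMS (80.6) and AMD1 (36.1) to SAT1 (18.4). No neighbours in this order overlapped between the 2 DMSO libraries, and OAZ1 and ODC1 were the closest. In UNC1999 the order was the same, with 462 for OAZ1 and 367 for ODC1. Per kilobase of the longest transcript ODC1 (266) stood above OAZ1 (188) in DMSO, SMS (46.2) above AZIN1 (38.5), and AMD1 (23.5) above OAZ2 (19.8), with SRM (319) still first and SAT1 (14.1) still last. SRM and SAT1 were thus first and last by both lengths.

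**Figure D3:**
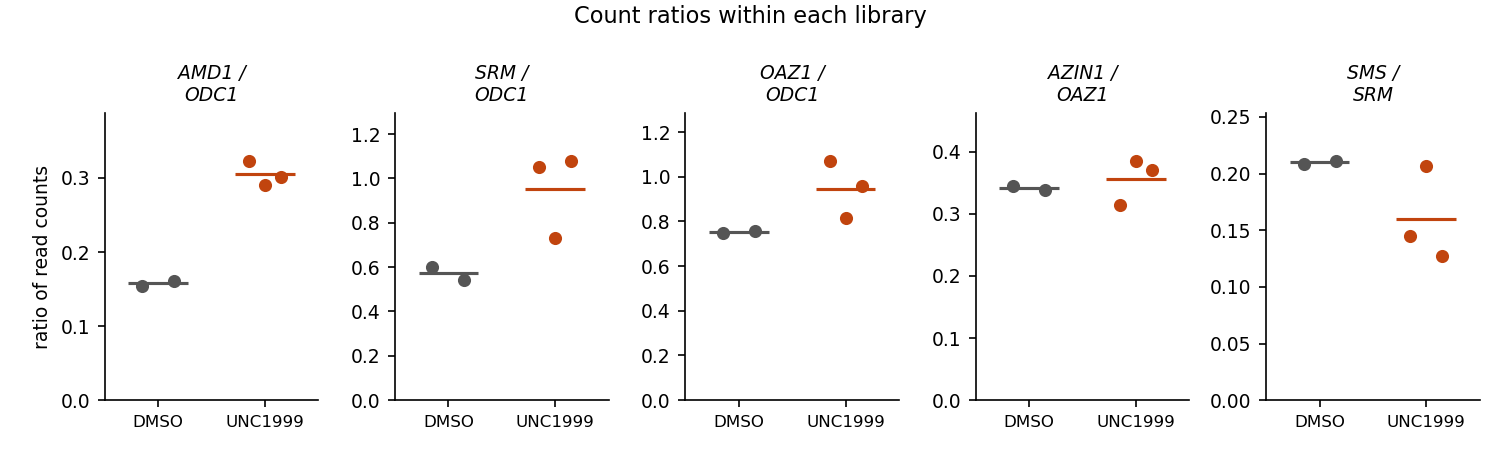
Ratios of read counts within each library (vertical axes, from 0) for 5 pairs of genes in DMSO (grey) and UNC1999 (orange); points are libraries and lines are group means. AMD1 to ODC1 goes from 0.158 to 0.305 on average, SRM to ODC1 from 0.572 to 0.954, and AZIN1 to OAZ1 overlaps between groups; with offsets, not drawn, AMD1 to ODC1 goes from 0.215 to 0.248 and AZIN1 to OAZ1 no longer overlaps.

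Ratios between genes within a library do not depend on scaling factors, though they do carry the GC trend. The ratio of AMD1 to ODC1 counts, the decarboxylases of both branches, was 0.154 and 0.161 in DMSO and 0.323, 0.290 and 0.302 in UNC1999, 1.94 times higher on average. SRM to ODC1 went from 0.600 and 0.544 to 1.05, 0.732 and 1.08. OAZ1 to ODC1, antizyme over its target, went from 0.750 and 0.758 to 1.07, 0.814 and 0.957. None of these count ratios overlapped between the groups, and in all 3 UNC1999 replicate 2 lay nearest to DMSO. All 3 are over ODC1, which itself did not overlap, so they are not separate results. Of all tested genes, 24.2% were higher and 30.4% lower in CPM without overlap, and no such share was taken for ratios. The ratio of AZIN1, the inhibitor, to OAZ1 did overlap (0.345 and 0.338 against 0.313, 0.385 and 0.370), as did AZIN1 to OAZ2 (1.26 and 1.32 against 1.25, 1.56 and 1.46). SMS to SRM was 0.209 and 0.211 in DMSO and 0.145, 0.207 and 0.127 in UNC1999.

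The same ratios of CPM with offsets, added after seeing the data, differed. AMD1 to ODC1 was 0.216 and 0.214 in DMSO and 0.261, 0.240 and 0.242 in UNC1999, which is 1.15 times higher in place of 1.94, and SRM to ODC1 was 1.21 times higher in place of 1.67. Both still did not overlap. OAZ1 to ODC1 overlapped with offsets (0.849 and 0.846 against 0.931, 0.864 and 0.821), and SMS to SRM did too. AZIN1 to OAZ1 no longer overlapped and was lower in UNC1999 (0.399 and 0.371 against 0.313, 0.305 and 0.368), as was AZIN1 to OAZ2 (1.63 and 1.57 against 1.14, 1.26 and 1.30).

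**Figure D4:**
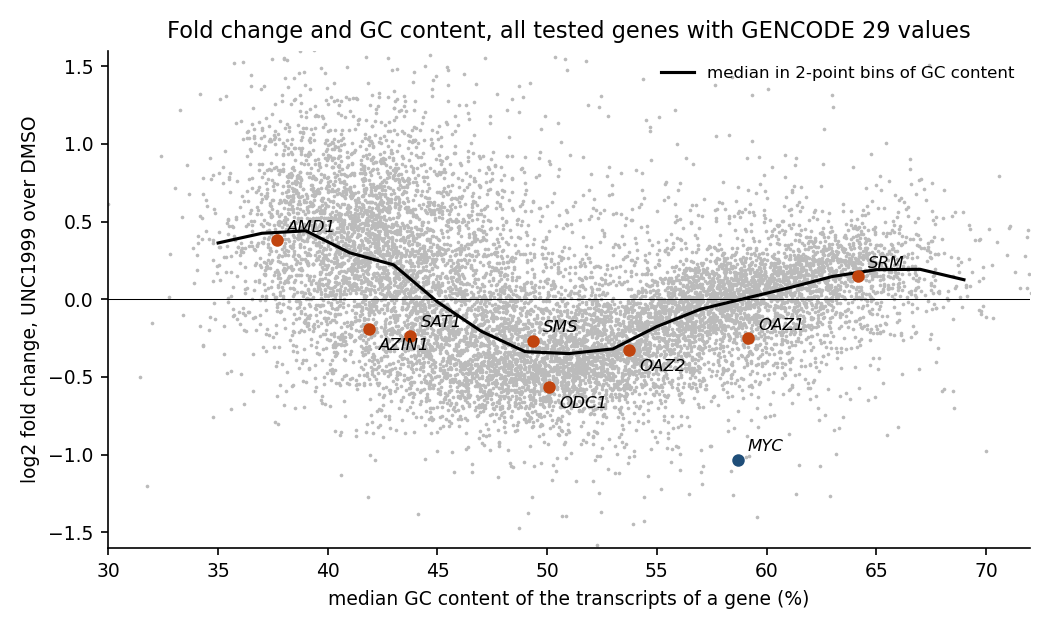
Log2 fold change (vertical axis) against the median GC content of a gene's transcripts (horizontal axis, %) for 11010 tested genes (grey; 40 more lie outside the axes), with the median in bins of 2 percentage points that hold at least 20 genes (black line), the 8 tested polyamine genes (orange) and MYC (blue). AMD1, SRM, SMS and OAZ2 lie near the line, and ODC1, AZIN1, OAZ1 and SAT1 lie below it.

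The polyamine genes span much of the range of GC content, from 37.7% in AMD1 to 64.2% in SRM. Set against tested genes within 1 percentage point of their own GC content, AMD1 (0.38 against a median of 0.47), SRM (0.15 against 0.18), SMS (-0.27 against -0.34) and OAZ2 (-0.33 against -0.27) differed by less than 0.1. AZIN1 (-0.19 against 0.30), SAT1 (-0.24 against 0.12), OAZ1 (-0.25 against 0.01) and ODC1 (-0.56 against -0.37) lay lower by 0.49, 0.36, 0.26 and 0.20. All 4 are descriptions on the log2 scale. ODC1's neighbours by GC content were themselves lower in UNC1999.

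Of 39 further genes around the pathway, 25 were tested, 2 were higher, 5 lower and 18 not called, with a median log2 fold change of -0.09 (-0.01 over all tested genes). With offsets 2 were higher and 7 lower. Over all tested genes the shares were 15.7% and 19.5%, and 14.9% and 18.9% with offsets. The 14 genes not tested had too few counts, among them the liver-type arginase ARG1 (at most 2 counts) and SLC7A2 and SATL1 at 0 in all libraries.

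**Figure D5:**
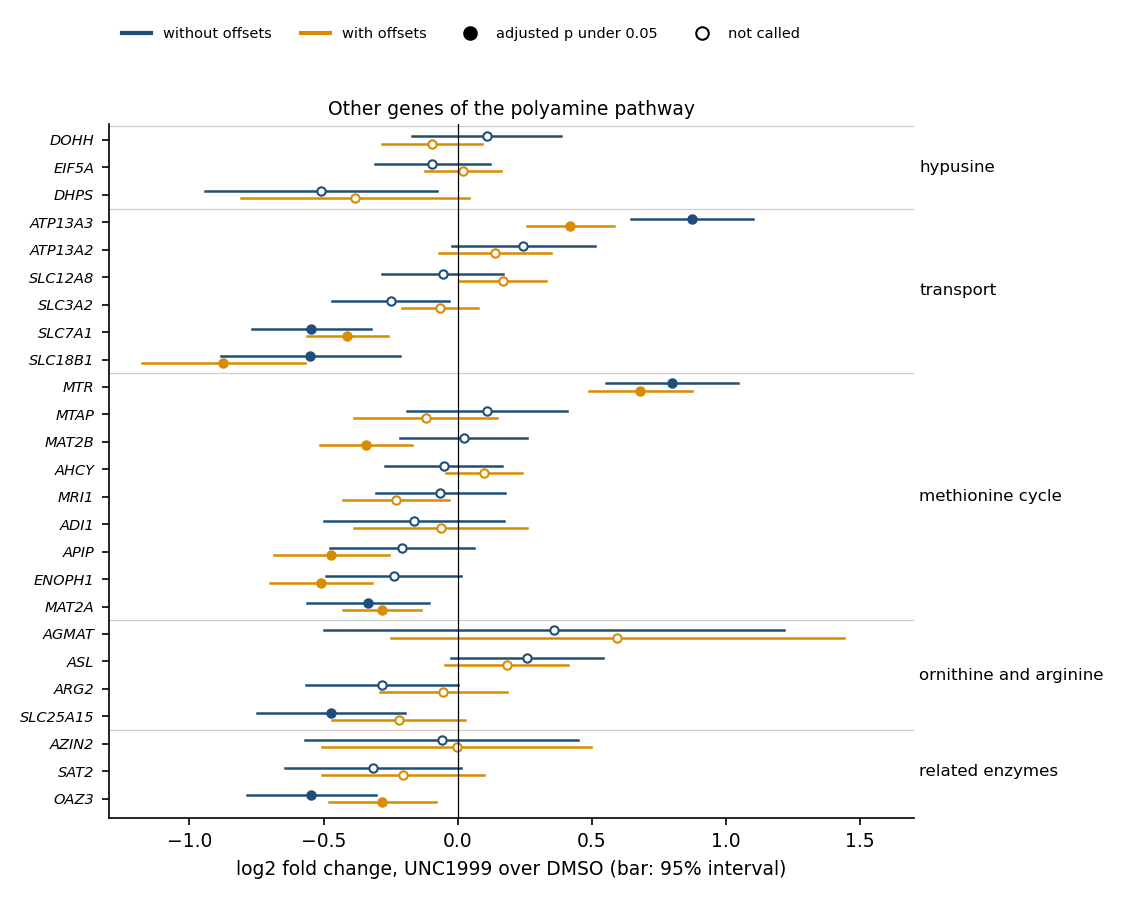
Log2 fold change (horizontal axis) with its 95% interval for the 25 tested pathway genes outside the 10, grouped by role, without offsets (blue) and with offsets (orange); filled points have an adjusted p under 0.05. ATP13A3 and MTR are above 0 and SLC7A1, SLC18B1, MAT2A and OAZ3 below 0 with filled points in both fits.

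Among transporters, 1 rose and 2 fell of 6 tested. ATP13A3, a transport ATPase linked to polyamine uptake, had 65.3 and 66.4 CPM in DMSO and 118, 122 and 122 CPM in UNC1999. It rose by 0.87 ± 0.11 on the log2 scale (SE; edgeR adjusted p = 2.47e-07), and by 0.42 with offsets. SLC7A1, the cationic amino acid carrier that imports arginine and ornithine, had 611 and 487 CPM in DMSO and 385, 375 and 369 CPM in UNC1999 (-0.55 ± 0.11 SE, edgeR adjusted p = 0.000164; -0.41 with offsets). SLC18B1, a vesicular polyamine carrier, named after its values were seen, also fell (-0.55; -0.87 with offsets). The higher and the lower transporters did not overlap between groups, where 24.2% of all tested genes were higher and 30.4% lower without overlap. They are named because they were called, so the lack of overlap adds no support.

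The methionine cycle and salvage list, which feeds AMD1 with S-adenosylmethionine, gave 1 higher and 1 lower of 9. MAT2A, the synthetase of that substrate, fell from 582 and 565 to 417, 529 and 416 CPM (-0.34 ± 0.11 SE, edgeR adjusted p = 0.0175; -0.28 with offsets). It shares 558 exon bases with GGCX on the opposite strand, which fell as well (-0.57; -0.29 with offsets). MTR, methionine synthase, rose from 37.6 and 32.6 to 61.0, 63.3 and 58.7 CPM (0.80 ± 0.12 SE, edgeR adjusted p = 3.52e-06; 0.68 with offsets). With offsets the salvage genes ENOPH1 (-0.51) and APIP (-0.47) and the MAT2A partner MAT2B (-0.34) were called lower too, named here after their values were seen. Without offsets none of them was called (-0.24, -0.21 and 0.02, edgeR adjusted p = 0.136, 0.225 and 0.903). MAT2B then stood at 80.9 CPM in DMSO and 82.1 CPM in UNC1999 on average.

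Of 4 tested genes for the supply of ornithine and arginine, SLC25A15, the mitochondrial ornithine carrier, fell by 0.47 on the log2 scale, from 25.8 and 28.4 to 17.7, 22.6 and 18.3 CPM (edgeR adjusted p = 0.00637), and none rose. With offsets it was not called (-0.22, edgeR adjusted p = 0.167). Of 3 tested relatives, OAZ3, an antizyme gene known from testis, fell from 48.5 and 48.8 to 30.5, 34.8 and 34.7 CPM (-0.55, edgeR adjusted p = 0.000447; -0.28 with offsets). Its exons share 333 bases with MRPL9 and 86 with TDRKH on the other strand, both of which fell (-0.56 and -0.55; -0.33 and -0.34 with offsets), so these reads may belong to either. None of the 3 tested genes of hypusine, the spermidine-derived residue of the translation factor EIF5A, was called. EIF5A itself had 882 and 886 CPM in DMSO and 839, 767 and 876 CPM in UNC1999 (-0.09, 95% interval -0.31 to 0.12). With offsets the value was 0.02 (-0.12 to 0.16).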

How the data were processed

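Raw counts of reads for each gene symbol, in a single table that the authors deposited, were used as given. Among tools, the submitters' processing notes list fastp, STAR 2.7.9 for one, then HTSeq 0.13.5 along with edgeR 3.34.0, and the build hg19, with no roles or settings. The annotation, strand setting and filters of the counting are not given in the sources. Columns were matched to samples by name. The 10 genes, the pathway lists and the settings were chosen with earlier results of these data known. Named pathway genes are, per list and direction, the called gene with the smallest p.

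Counts were filtered with filterByExpr and fitted in edgeR 4.0.16 (R 4.3.3; TMM, glmQLFit, glmQLFTest), 2 libraries against 3, over 13075 genes. SE is the fold change over the root of F. Totals include all rows; 222 symbols stand on more than 1 row, none of them a gene named here. Rows for processed copies of AMD1 and SRM held at most 2 counts. For the offsets, the log2 CPM of each library (prior count 2), less the mean of all libraries, was fitted by splines of GC content (6 degrees of freedom) and of log2 length (4), from GENCODE 29 medians per symbol, which 84.5% of tested genes have. The fit without offsets was run on simulated counts with changes put in. The fit with offsets was run only on simulated counts with a GC trend and no changes, so whether it keeps true changes was not tested. Other settings included DESeq2 1.42.0 and limma 3.58.1, other scaling and filters, a replicate block and leaving out each library.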

Additional observations from a re-analysis of the deposited data

How the results depend on the processing

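Against 1 higher and 2 lower of the polyamine genes, 2 and 5 of the pathway genes, and 2057 and 2546 of all genes, these settings differed. No scaling factors gave 1 lower polyamine gene, 4 higher pathway genes and 2949 against 1742 of all genes; upper-quartile factors gave 1 lower polyamine gene, as did a threshold of 0.01. Offsets gave 0 higher polyamine genes, also with a replicate block and with GC content and length from the longest transcript, which gave 4 higher pathway genes. Offsets fitted within groups, which keep differences between groups, gave 5 lower polyamine genes and 9 lower pathway genes.

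Leaving out 1 library at a time gave 0 to 2 higher and 1 to 5 lower polyamine genes, 2 to 5 higher and 2 to 9 lower pathway genes, and 1158 to 2862 higher and 1367 to 3030 lower of all genes. The most calls came without UNC1999 replicate 2; without a DMSO library, the lone one is assumed to vary like the UNC1999 group. With offsets as well, added after seeing the data, no polyamine gene was higher (0 in each fit); 4 were lower without DMSO replicate 1 or UNC1999 replicate 2 and 1 without UNC1999 replicate 1, and 9 pathway genes were lower without UNC1999 replicate 2. Of all genes, 1134, 1172, 1293 and 1344 were higher without DMSO replicate 1, DMSO replicate 2, UNC1999 replicate 1 and UNC1999 replicate 3, and 1612, 1607 and 1597 lower without DMSO replicate 1, DMSO replicate 2 and UNC1999 replicate 1.

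Signs of the log2 fold change turned mainly with offsets. With all libraries the turned values of AMD1 and SMS were smaller than their SE (0.077 and 0.087). AMD1 had -0.059 with offsets, -0.036 with the replicate block as well, and -0.078, -0.046, -0.028, -0.111 and -0.031 without DMSO replicates 1 and 2 and UNC1999 replicates 1, 2 and 3. SMS had 0.022 with offsets, 0.071 with the block as well, and 0.067, 0.061 and 0.078 without DMSO replicate 1, UNC1999 replicate 1 and UNC1999 replicate 3. It stayed negative with offsets without DMSO replicate 2 (-0.027) or UNC1999 replicate 2 (-0.069). With offsets from the longest transcript AMD1 had 0.004 and SMS -0.004. SRM had -0.052 and -0.015 with offsets and without DMSO replicate 2 or UNC1999 replicate 2. With no offsets SAT1 ranged from -0.451 without DMSO replicate 1 to 0.017 without DMSO replicate 2. The cause was not tested.

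The labels do not say that a replicate number marks a shared culture, and deviations of same-numbered libraries correlated at 0.066 and 0.038. The replicate block gave 1 higher and 1 lower polyamine gene and ended the OAZ2 call (edgeR adjusted p = 0.0522). As UNC1999 replicate 3 has no DMSO counterpart, that fit compares fewer libraries, and a lost call may come from this alone. At 100 to 156 counts per library SAT1 had the largest SE of the 8 tested genes (0.16), to which depth and the spread between libraries both add, and PAOX and SMOX had too few counts for a test.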
